A study of Homo sapiens with 12 samples.

Results

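SP-49 is a cultured human line of mantle cell lymphoma, a cancer of mature B cells. Its response to the gamma-secretase inhibitor compound E was taken from 4 of the 12 arrays of the study, chosen by their labels. In the inhibitor group, 2 arrays carried RNA of SP-49 cells kept for 24 h with 1 µM compound E. In the mock group, 2 arrays carried RNA of SP-49 cells given 0.1% DMSO for 24 h. Both groups grew in RPMI with 10% serum, and no DMSO share is given for the inhibitor group. Likewise, Rec-1 and Mino, also lines of this lymphoma, had 2 inhibitor and 2 mock arrays each, with 10% serum for Rec-1 and 15% for Mino. They served to estimate the spread and, where stated, to test whether SP-49 responded differently. Each line is a single cell line, so the arrays do not sample different patients. The comparison asked which transcripts differ in SP-49 when gamma-secretase is blocked.

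Notch receptors sit in the cell membrane and are switched on by ligands on neighbouring cells. Ligand binding lets an ADAM protease and then gamma-secretase cut the receptor, and the freed inner part travels to the nucleus, joins the DNA-binding protein RBPJ and Mastermind coactivators, and turns on target genes. In B cells, Notch signalling is known for its part in marginal zone B-cell development, and mutations that prolong it recur in mantle cell lymphoma. A gamma-secretase inhibitor prevents that last cut.

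Levels are log2 values of the probe set that stood for a gene, and a change is inhibitor minus mock on that scale. A gene was called when its adjusted p in limma, over all 19775 genes, was under 0.05. The median of all probe set values was 1.99, which is used below as a mark of the low end of the scale. The table holds no detection calls, so a change that ends near this mark is a difference on the scale of the table and no fold is given for it. Inhibitor replicate 2 stood apart from the other SP-49 arrays: its upper quartile was 3.54, against 3.74 on inhibitor replicate 1 and 3.76 and 3.74 on the mock arrays. Its correlation with the mock arrays over all probe sets was 0.988, against 0.993 for inhibitor replicate 1. For GAPDH, the 3' minus 5' control signal, which tracks RNA integrity, was 0.35 and 0.44 on the inhibitor arrays and 0.35 and 0.34 on the mock arrays. For ACTB the same control signal lay the other way on inhibitor replicate 2, at 2.30 and 2.16 with inhibitor and 2.29 and 2.36 with mock. The part of these array differences in the results was not tested, and values without inhibitor replicate 2 are given below beside the results they touch.

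The label was checked against defining genes. The B-cell genes PAX5 (9.42 and 9.46 with inhibitor, 9.59 and 9.70 with mock) and MS4A1, which encodes CD20 (11.12 and 11.33 with inhibitor, 11.10 and 11.09 with mock), were bright on every array. The lymphoma markers CCND1 (10.69 and 10.78 with inhibitor, 10.47 and 10.43 with mock) and SOX11 (8.64 and 8.68 with inhibitor, 8.50 and 8.62 with mock) were bright too. CD5, a surface marker of this lymphoma, was low, at 2.94 and 2.55 with inhibitor and 2.73 and 2.73 with mock. Of 56 measured markers of other cells (T, NK, myeloid, stromal, epithelial and red cells), 1 was called, beside 0.192% of all genes. That gene was CDH1, described below. The medians of these 6 lists ran from -0.11 to 0.09, with 50% of the red-cell list measured. Mean levels over the members of these lists ran from 1.57 to 2.99 on the inhibitor arrays and from 1.46 to 3.02 on the mock arrays. The epithelial list averaged 2.14 and 2.16 with inhibitor and 2.29 and 2.32 with mock. Some single members were brighter than these means. VIM, of the stromal list, was at 9.63 and 9.89 with inhibitor and 9.91 and 9.83 with mock. GZMB, of the NK list, was at 4.90 and 4.15 with inhibitor and 4.57 and 5.26 with mock.

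In all, 38 genes were called in SP-49, or 0.192% of those tested, 34 lower (0.172%) and 4 higher (0.0202%). A list below with 0 called genes is to be read beside this 0.192%. The median change of all genes was -0.02. When quantile normalization was applied again, 33 were lower and 9 higher. At an unadjusted p under 0.05, 1754 genes (8.87%) differed. For each of the 38 genes, both inhibitor arrays lay beyond both mock arrays, which was also so for 42.5% of all genes. Because RNA was pooled over all cells of a culture, fewer cells of a type and less RNA per cell cannot be told apart.

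**Figure D1:**
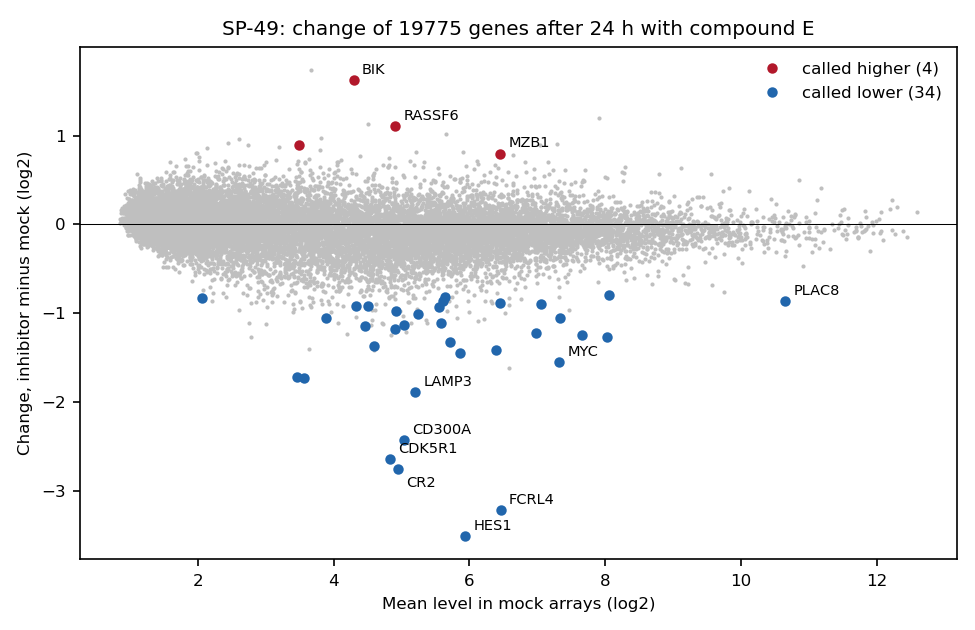
Change in SP-49 (inhibitor minus mock, log2, vertical axis) against the mean level on the 2 mock arrays (log2, horizontal axis) for 19775 genes, with the 34 genes called lower in blue and the 4 called higher in red. HES1, FCRL4, CR2, CDK5R1 and CD300A lie lowest, with changes from -3.51 to -2.43, and BIK is the highest of the called genes at 1.62.

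The genes of the Notch apparatus itself were not called. Among the receptors, NOTCH1, the one most often mutated in this lymphoma, was at 5.93 and 5.88 with inhibitor and 6.22 and 6.13 with mock (change -0.27, adjusted p = 0.53). NOTCH2, the receptor of marginal zone B cells, was at 8.47 and 8.35 with inhibitor and 8.21 and 8.25 with mock (change 0.18, adjusted p = 0.786). NOTCH4 was at 8.41 and 8.55 with inhibitor and 8.26 and 8.19 with mock. For these receptors the groups did not overlap, which was also so for 42.5% of all genes, and the gaps were small. The groups overlapped for NOTCH3 (3.14 and 2.96 with inhibitor, 3.09 and 3.38 with mock). NOTCH1 has another probe set, dimmer and with a change of 0.59, and the mean of its probe sets had a change of 0.16, so its direction depended on the probe set.

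Of 5 Notch ligands, 0 were called, beside 0.192% of all genes, with changes from -0.30 (JAG2) to 0.10 (JAG1). The groups overlapped for 2 of these 5 ligands, and did not overlap for 42.5% of all genes. At an unadjusted p under 0.05 the count among ligands was 0 as well, beside 8.87% of all genes. Of 7 measured genes of the gamma-secretase complex and the ADAM sheddases, 0 were called by limma, beside 0.192% of all genes. Their count at an unadjusted p under 0.05 was also 0, beside 8.87% of all genes. ADAM17, a sheddase, was at 7.49 and 7.68 with inhibitor and 7.45 and 7.39 with mock. PSEN2, a catalytic subunit, was at 2.64 and 3.18 with inhibitor and 2.35 and 2.72 with mock. Of 17 nuclear partners and regulators, 0 were called by limma and 0 had an unadjusted p under 0.05, beside 0.192% and 8.87% of all genes. Their median change was 0.0. RBPJ, the DNA-binding partner, was at 7.07 and 6.88 with inhibitor and 6.93 and 6.89 with mock, and the groups overlapped.

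Of 14 direct Notch targets measured, 1 fell and 0 rose, beside 0.172% and 0.0202% of all genes. HES1 encodes a repressor and is a textbook Notch target, and its levels were 2.53 and 2.33 with inhibitor and 6.11 and 5.77 with mock. Both inhibitor arrays were near the low end of the scale and far below both mock arrays. Its change was -3.51 (95% interval -3.94 to -3.08, adjusted p = 1.18e-05). A dimmer probe set of HES1 was at 2.04 and 2.35 with inhibitor and 3.97 and 3.72 with mock. The remaining HES1 probe set was near the bottom of the range in both groups, at 1.63 and 1.34 with inhibitor and 1.62 and 1.41 with mock.

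The promoter of HES1 is shown because HES1 was the member with the deepest fall and holds 2 copies of TGGGAA, the core letters that RBPJ is known to bind. The 250 bases before its start (RefSeq, GRCh38.p14, chr3:194135898-194136147, plus strand) hold these copies 84 to 79 and 70 to 65 bases before the start, both on the gene's strand. TMEM200A, a membrane protein gene, is set beside it. Of the 10 genes with the smallest p, it is the other one whose window holds the letters, while BIK and MYC had no window to search. The TMEM200A window (chr6:130365767-130366016, plus strand) holds them as the reverse complement TTCCCA, 143 to 138 bases before the start. Capitals mark the core letters.
HES1: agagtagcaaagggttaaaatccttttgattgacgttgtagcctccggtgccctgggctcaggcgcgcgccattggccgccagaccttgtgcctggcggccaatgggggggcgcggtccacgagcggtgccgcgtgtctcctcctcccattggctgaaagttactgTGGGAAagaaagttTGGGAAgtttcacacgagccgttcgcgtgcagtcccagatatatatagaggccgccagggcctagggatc
TMEM200A: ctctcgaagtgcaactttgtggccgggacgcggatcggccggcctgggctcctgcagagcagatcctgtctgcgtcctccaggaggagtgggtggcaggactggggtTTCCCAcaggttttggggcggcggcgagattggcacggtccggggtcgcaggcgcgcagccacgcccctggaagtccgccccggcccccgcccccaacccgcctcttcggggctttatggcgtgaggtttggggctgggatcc

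Of the 24 genes called lower that had a promoter in the table, 4 held TGGGAA on either strand, or 16.7%, against 20.1% of 15382 measured genes. These were HES1, TMEM200A, DZANK1 and VPREB3. The E-box letters CACGTG, which MYC with MAX is known to bind, were in 3 of the 24 (12.5%), against 7.83% of all. A match is a description of the letters in this window, and enhancers were not examined.

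Other classical targets were lower with inhibitor but did not pass. HEY1, a repressor related to HES1, was at 2.64 and 2.52 with inhibitor and 3.52 and 3.54 with mock (change -0.95, 95% interval -1.38 to -0.51, adjusted p = 0.107). A dimmer HEY1 probe set overlapped between the groups, with a change of -0.21. HES4, of the same family, was at 2.15 and 2.03 with inhibitor and 3.25 and 2.80 with mock (change -0.93, adjusted p = 0.132). NRARP, a feedback inhibitor that dismantles the Notch complex, was at 5.00 and 5.10 with inhibitor and 5.81 and 5.81 with mock (change -0.76, adjusted p = 0.0756). At the probe sets that stood for these 3 genes, both inhibitor arrays were below both mock arrays, which was also so for 24.4% of all genes. DTX1, a Deltex ubiquitin ligase and Notch target, lay the other way, at 7.55 and 7.75 with inhibitor and 7.07 and 7.14 with mock (change 0.55, adjusted p = 0.13). The other members of the list had changes from -0.19 (NOTCH3) to 0.30 (HEYL), and the median of all 14 was -0.06, or 0.03 without inhibitor replicate 2.

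The responses of HEY1, HES4 and DTX1 differed between SP-49 and Rec-1 when the difference itself was tested, as did those of 0.556% of all genes. The SP-49 change minus the Rec-1 change was 1.99 for HEY1 (95% interval 1.38 to 2.61, adjusted p = 0.0156), whose change in Rec-1 was -2.94. It was 1.55 for HES4 (adjusted p = 0.0482), whose change in Rec-1 was -2.48. For DTX1 it was 1.05 (adjusted p = 0.0275), with a change of -0.50 in Rec-1. For HES1 the difference was 0.30 (95% interval -0.31 to 0.90, adjusted p = 0.77). In SP-49 the mock levels of HEY1 (3.52 and 3.54) and HES4 (3.25 and 2.80) were not far above the low mark of 1.99. They left little room for falls as large as those in Rec-1. The part of these low starting levels in the differences was not tested. The difference of HEY1 passed in 6 of 12 fits with 1 array omitted, that of HES4 in 2 and that of DTX1 in 5. Without mock replicate 1 of SP-49 the adjusted p was 0.0911 for HEY1 and 0.15 for DTX1, and without mock replicate 2 it was 0.217 for HES4.

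**Figure D2:**
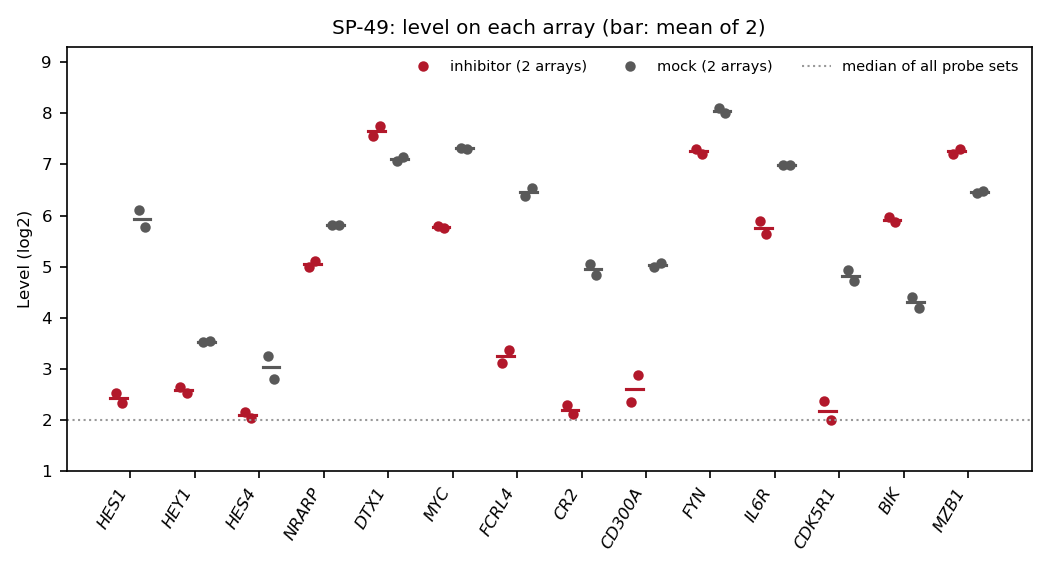
Level (log2, vertical axis) of 14 genes on each SP-49 array, with inhibitor in red to the left of mock in grey, and a bar at each mean of 2 arrays. The inhibitor arrays of HES1, CR2 and CDK5R1 sit close to the dotted median of all probe sets (1.99), and those of DTX1, BIK and MZB1 lie above their mock arrays.

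In the list of 20 B-cell genes linked to Notch, 6 fell and 0 rose, beside 0.172% of all genes called lower. The list was written with knowledge of such responses, so it is no independent evidence of a direction. FCRL4, an inhibitory receptor of memory B cells, was at 3.12 and 3.37 with inhibitor and 6.39 and 6.53 with mock. Both inhibitor arrays were far below both mock arrays, and its change was -3.21 (95% interval -3.58 to -2.85), 9.28-fold lower. Its other 2 probe sets had changes of -2.68 and -3.48. CR2 encodes the complement receptor CD21, which lowers the threshold of B-cell activation. It was at 2.28 and 2.11 with inhibitor and 5.06 and 4.83 with mock (change -2.75, 95% interval -3.10 to -2.40), and its other probe set was low in both groups (change 0.01). CD300A, an inhibitory receptor with a cytoplasmic signalling motif, was at 2.34 and 2.87 with inhibitor and 5.00 and 5.07 with mock (change -2.43). Of its dimmer probe sets, one was at 1.34 and 1.15 with inhibitor and 2.11 and 1.94 with mock, and the other overlapped between the groups (change 0.12). MYC, also in this list, is described below.

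Smaller falls in this list were those of IL6R and FYN. IL6R, the receptor chain that binds interleukin 6, was at 5.90 and 5.63 with inhibitor and 6.98 and 6.99 with mock (change -1.22, 95% interval -1.62 to -0.82, adjusted p = 0.0329). A second IL6R probe set gave 5.22 and 4.77 with inhibitor and 6.37 and 6.54 with mock. FYN, a Src-family kinase, was at 7.31 and 7.20 with inhibitor and 8.10 and 8.01 with mock (change -0.80, adjusted p = 0.045). A dimmer FYN probe set showed a wider gap, at 3.20 and 3.02 with inhibitor and 4.93 and 4.80 with mock. Every probe set named here separated the groups, as did those standing for 42.5% of all genes. The dimmest IL6R probe set had a change of -0.45, and the other 3 of FYN had changes of -0.69, -0.47 and -0.25. The kinase BLK (change -0.71, adjusted p = 0.0926) and the receptor chain CD79A (change 0.70, adjusted p = 0.114) had values in opposite directions and were not called. The median of the 20 genes was -0.16. Without mock replicate 1 of SP-49, the adjusted p was 0.331 for IL6R and 0.393 for FYN, and without inhibitor replicate 2 it was 0.305 and 0.35.

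MYC, the transcription factor that drives cell growth, was at 5.79 and 5.75 with inhibitor and 7.33 and 7.31 with mock. The arrays within each group were nearly equal and the groups lay far apart. Its change was -1.55 (95% interval -1.94 to -1.16), 2.93-fold lower (adjusted p = 0.00565; 0.0885 without inhibitor replicate 2, with a change of -1.53). The change differed by -0.02 from that in Rec-1 (95% interval -0.56 to 0.53) and by -1.68 from that in Mino (adjusted p = 0.0564). Of 12 measured genes of the MYC and MAX network, MYC was the 1 called, beside 0.172% of all genes called lower. MGA, a MAX partner that represses, had a change of -0.36 and the repressor MXI1 one of -0.44, while MXD3 had 0.29 (adjusted p = 0.575, 0.741 and 0.654). Without inhibitor replicate 2 these changes were -0.20 for MGA, -0.13 for MXI1 and 0.46 for MXD3.

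Of 34 measured genes of ribosome biogenesis, 0 were called by limma, yet each inhibitor array was below each mock array for 32, beside 24.4% of all genes. At an unadjusted p under 0.05, 20 of the 34 differed, beside 8.87% of all genes. The median was -0.41, with -0.34 on inhibitor replicate 1 and -0.43 on inhibitor replicate 2 against the mock mean. At the mean of each gene's probe sets it was -0.30. WDR43, a nucleolar factor of the small subunit, was at 5.40 and 5.15 with inhibitor and 6.04 and 6.10 with mock (change -0.80, adjusted p = 0.0714). NOP16, DDX21 and RRP12, also nucleolar, had changes of -0.52, -0.48 and -0.58 (adjusted p = 0.175, 0.177 and 0.183). POLR1B, a subunit of RNA polymerase I, had the widest gap of the list at -0.99 but varied more (adjusted p = 0.341). Of 22 measured ribosomal protein genes, 0 were called and 0 had an unadjusted p under 0.05, beside 0.192% and 8.87% of all genes. Their median was -0.09, and 68.8% of that list was measured.

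Of 34 measured genes of MYC-linked metabolism, 2 fell and 0 rose, beside 0.172% of all genes called lower, with a median of -0.31. HK2, a hexokinase, which phosphorylates glucose, was at 3.88 and 3.57 with inhibitor and 4.89 and 4.90 with mock (change -1.18, adjusted p = 0.0121). The other 2 probe sets of HK2, of similar brightness, had changes of -0.23 and -0.71. BCAT1, which transfers the amino group of branched-chain amino acids, was at 6.20 and 6.12 with inhibitor and 7.05 and 7.07 with mock (change -0.90, adjusted p = 0.0186). Its other 3 probe sets had changes of -0.76, -0.85 and -0.90. CCDC86, a nucleolar protein outside the lists, was at 5.77 and 5.36 with inhibitor and 6.46 and 6.44 with mock (change -0.88, adjusted p = 0.0484). Without inhibitor replicate 2 the adjusted p was 0.171 for HK2, 0.188 for BCAT1 and 0.369 for CCDC86, and BCAT1 reached 0.237 without mock replicate 2.

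NME1, a nucleotide kinase, was at 8.61 and 8.48 with inhibitor and 9.25 and 9.19 with mock, just short of a call (change -0.67, adjusted p = 0.0533). The serine synthesis enzyme PSPH had a change of -0.60 and the enolase ENO1 one of -0.44 (adjusted p = 0.138 and 0.215). The amino acid transporter SLC7A5 and the proline synthesis enzyme PYCR1 lay the other way, at 0.47 and 0.53 (adjusted p = 0.364 and 0.402). In the glycolysis list, HK2 was again the 1 called of 21, beside 0.172% of all genes called lower, and the median was -0.18. Of 17 heat-shock genes and chaperones measured, 0 were called, each inhibitor array was below each mock array for 13, beside 24.4% of all genes, and the median was -0.22. At an unadjusted p under 0.05, 5 of them differed, beside 8.87% of all genes. The chaperonin subunit CCT5 was at 8.27 and 8.25 with inhibitor and 8.80 and 8.76 with mock (adjusted p = 0.134). The heat-shock list holds values for 77.3% of its members.

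CDK5R1, the activator of the kinase CDK5, was at 2.36 and 2.0 with inhibitor and 4.93 and 4.72 with mock. Both inhibitor arrays were near the low end of the scale and both mock arrays well above it. Its change was -2.65 (95% interval -2.99 to -2.30, adjusted p = 1.18e-05). The SP-49 change was more negative than that in Rec-1 by -1.91 (95% interval -2.40 to -1.43, adjusted p = 0.00635), where the change was -0.73. This difference had an adjusted p of 0.0602 without mock replicate 1 of SP-49 and passed in the other 11 fits. The second CDK5R1 probe set was low in both groups, at 1.62 and 1.57 with inhibitor and 1.63 and 1.59 with mock.

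A further 7 called genes had a more negative change in SP-49 than in Rec-1, a direction in which the difference passed for 0.384% of all genes. They were called on the SP-49 change, which is part of the difference, so an excess over that share was built in. ETV1, an ETS-family transcription factor, was at 4.67 and 4.15 with inhibitor and 5.96 and 5.77 with mock, with changes of -1.45 in SP-49 and 0.29 in Rec-1 (difference -1.74, adjusted p = 0.0127). LAMP3, a lysosomal membrane protein of activated dendritic cells, was at 3.84 and 2.78 with inhibitor and 5.17 and 5.23 with mock. The LAMP3 inhibitor arrays were more than 1 unit apart, and its change was -1.89 against 0.46 in Rec-1 (difference -2.35, adjusted p = 0.0386). GPAT3, which starts triglyceride synthesis, was at 1.92 and 1.57 with inhibitor and 3.88 and 3.04 with mock, against a change of -0.02 in Rec-1 (adjusted p of the difference = 0.0443). DTX4, a Deltex ubiquitin ligase like DTX1, was at 6.31 and 6.53 with inhibitor and 7.83 and 7.49 with mock, with a difference of -1.51 from Rec-1 (adjusted p = 0.0355).

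VPREB3, a partner of the immunoglobulin chains in the B lineage, was at 2.98 and 2.68 with inhibitor and 3.88 and 3.90 with mock (difference from Rec-1 -1.33, adjusted p = 0.0429). The monocarboxylate transporter family gene SLC16A14 was at 3.96 and 3.83 with inhibitor and 5.09 and 4.98 with mock (difference -1.24, adjusted p = 0.0482). DZANK1, a zinc-ribbon and ankyrin-repeat protein gene, was at 3.66 and 3.53 with inhibitor and 4.52 and 4.50 with mock (difference -1.19, adjusted p = 0.0272). In each of these 7 genes the SP-49 groups stood apart, as in all 38 called genes and in 42.5% of all genes. With 1 array left out, these differences passed in 9 (ETV1), 3 (LAMP3), 2 (GPAT3), 4 (DTX4), 3 (VPREB3), 3 (SLC16A14) and 7 (DZANK1) of 12 fits. The other 4 probe sets of ETV1 had changes from -0.78 to -0.19. The calls within SP-49 rested on single arrays too, with a highest adjusted p from 0.116 (ETV1, without mock replicate 1) to 0.379 (VPREB3, without inhibitor replicate 2). Without inhibitor replicate 2 all 7 calls ended, with adjusted p from 0.0519 (ETV1) to 0.379. For the differences, the highest adjusted p ran from 0.0868 for ETV1, without mock replicate 1, to 0.224 for SLC16A14, also without mock replicate 1.

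Of the 38 genes called in SP-49, 18 were also called in the same direction in Rec-1, 16 lower and 2 higher, beside 3.62% and 2.15% of all genes called lower and higher in Rec-1. The 38 genes were chosen by the SP-49 change, which is also part of both differences between lines, so an excess over all genes was built in. The test of the difference passed for 8 of the 38 against Rec-1 and for 9 against Mino, beside 0.556% and 0.0455% of all genes. Against Mino these were FCRL4, HES1, CR2, CDK5R1, TMEM200A, CD300A, BIK, ETV1 and PLAC8. BIK was the 1 with a more positive change in SP-49 (0.00506% of all genes), and the other 8 had a more negative one (0.0405%). Of them, FCRL4, HES1, CR2 and CDK5R1 passed in all 12 fits with 1 array omitted. TMEM200A passed in 2, CD300A and BIK in 4, and ETV1 and PLAC8 in 6.

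**Figure D3:**
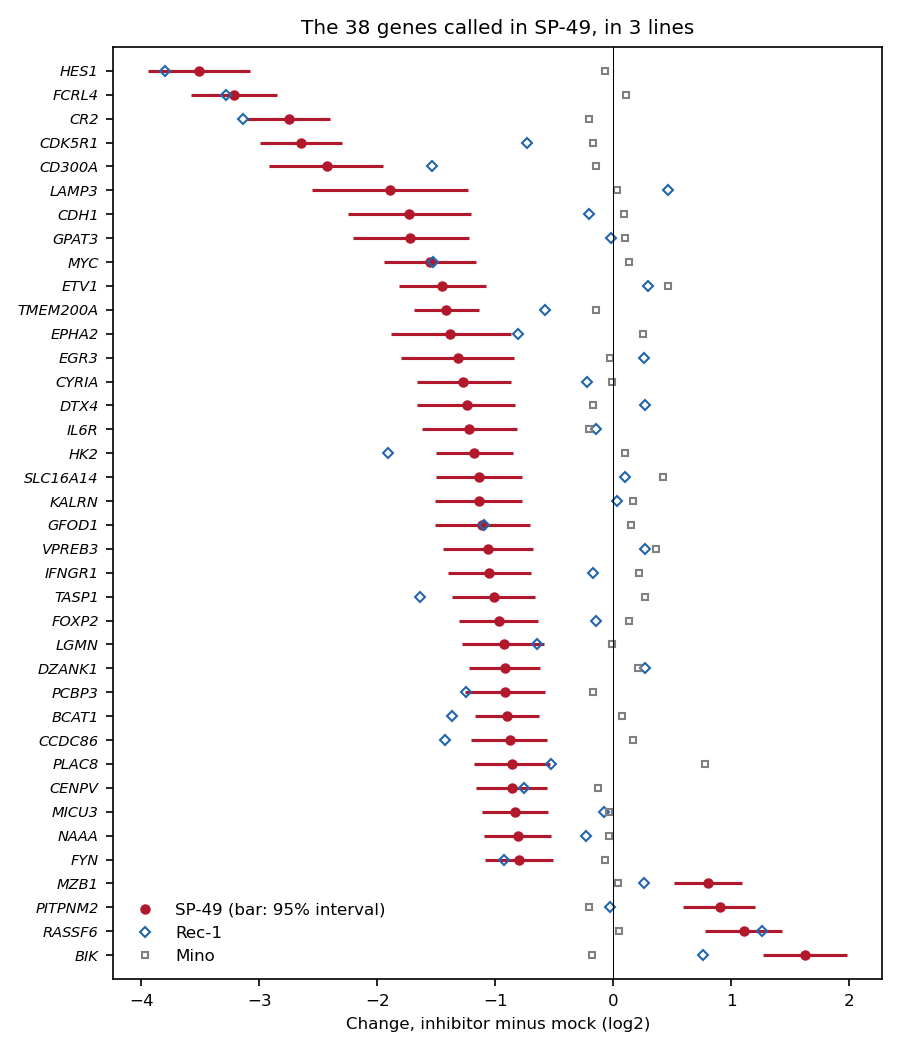
Change with inhibitor (log2, horizontal axis) of the 38 genes called in SP-49, with a red dot and a 95% interval for SP-49, a blue diamond for Rec-1 and a grey square for Mino. The changes of HES1, FCRL4 and MYC differ between SP-49 and Rec-1 by 0.30 or less, whereas LAMP3, GPAT3, ETV1 and DTX4 fell in SP-49 and are at -0.02 or above in Rec-1.

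Receptors and signalling genes made up part of the other falls. IFNGR1, a chain of the interferon-gamma receptor, was at 6.38 and 6.19 with inhibitor and 7.26 and 7.42 with mock (change -1.05, adjusted p = 0.0333), and its other 2 probe sets had changes of -1.68 and -0.83. EPHA2, an ephrin receptor kinase, was at 3.56 and 2.87 with inhibitor and 4.45 and 4.73 with mock (change -1.38, adjusted p = 0.0473). Both genes separated the groups, as did 42.5% of all genes, with the inhibitor arrays of EPHA2 well apart. EGR3, an immediate-early transcription factor, was at 4.59 and 4.21 with inhibitor and 5.72 and 5.72 with mock (change -1.32, adjusted p = 0.0466). KALRN was at 3.42 and 3.21 with inhibitor and 4.36 and 4.57 with mock, and CYRIA, a RAC1-binding protein, at 6.81 and 6.72 with inhibitor and 8.06 and 8.0 with mock. KALRN and CYRIA had changes of -1.14 and -1.27, and the 3 probe sets of CYRIA had changes from -1.27 to -1.03. The other 6 probe sets of KALRN were low and had changes from -0.21 to 0.11. The highest adjusted p with 1 array left out was 0.315 for IFNGR1, 0.403 for EPHA2 and 0.315 for KALRN without mock replicate 2, 0.39 for EGR3 without inhibitor replicate 2, and 0.301 for CYRIA without mock replicate 1. Without inhibitor replicate 2 all 5 calls ended, with adjusted p from 0.244 (CYRIA) to 0.39 (EGR3).

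CDH1, the adhesion protein E-cadherin, was at 1.84 and 1.82 with inhibitor and 3.99 and 3.13 with mock (change -1.73, adjusted p = 0.0207; 0.194 without inhibitor replicate 2). Both inhibitor arrays were below the median of all probe sets, and the mock arrays were low and far apart. Its other probe set was lower still (change 0.06). CDH1 is also an epithelial marker. The other 9 epithelial genes were not called, and EPCAM was low, at 1.41 and 1.93 with inhibitor and 1.56 and 1.66 with mock.

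TMEM200A was at 4.94 and 5.03 with inhibitor and 6.48 and 6.32 with mock (change -1.42, 95% interval -1.69 to -1.14, adjusted p = 0.00071), and its call held without any 1 array. PLAC8, bright on all arrays, was at 9.76 and 9.82 with inhibitor and 10.63 and 10.68 with mock (change -0.86). LGMN, a lysosomal protease, was at 4.73 and 4.51 with inhibitor and 5.63 and 5.48 with mock, and NAAA, a lysosomal hydrolase of fatty acid amides, at 4.81 and 4.86 with inhibitor and 5.67 and 5.63 with mock. These lysosomal genes had changes of -0.93 and -0.81, but the other 3 probe sets of NAAA had changes of -0.22, -0.07 and 0.17. FOXP2, a forkhead factor, had a change of -0.97 at its brightest probe set and of -1.28 at a dimmer one, while its other 7 probe sets had changes from -0.17 to 0.09. GFOD1, TASP1, PCBP3, CENPV and MICU3 had changes of -1.11, -1.01, -0.92, -0.86 and -0.83. TASP1 is the protease that cuts MLL proteins and CENPV a centromere protein. MICU3, a mitochondrial calcium uptake gene, was the dimmest call, at 1.11 and 1.36 with inhibitor and 2.07 and 2.07 with mock. Apart from TMEM200A, each gene in this paragraph lost its call in 7 or more of 12 fits with 1 array omitted, with a highest adjusted p between 0.336 (MICU3) and 0.403 (LGMN), both without mock replicate 1. Without inhibitor replicate 2 their adjusted p ran from 0.115 (MICU3) to 0.391 (LGMN).

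The genes that rose were BIK, RASSF6, PITPNM2 and MZB1. BIK, a BH3-only protein of the endoplasmic reticulum that promotes apoptosis, was at 5.97 and 5.87 with inhibitor and 4.41 and 4.19 with mock. The groups were far apart, and BIK was 3.08-fold higher (change 1.62, 95% interval 1.27 to 1.98, adjusted p = 0.00161). RASSF6, a Ras-association protein tied to Hippo signalling, was at 6.14 and 5.89 with inhibitor and 4.95 and 4.87 with mock (change 1.11, adjusted p = 0.0186; 0.238 without mock replicate 2 and 0.0837 without inhibitor replicate 2). PITPNM2, a phosphatidylinositol transfer protein, was at 4.30 and 4.46 with inhibitor and 3.40 and 3.56 with mock (change 0.90, adjusted p = 0.0333; 0.36 without mock replicate 1 and 0.305 without inhibitor replicate 2). RASSF6 and PITPNM2 each have dimmer probe sets that did not pass, with changes from 0.01 to 0.55.

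BIK was the 1 called of 17 measured BCL2-family genes, beside 0.0202% of all genes called higher. The median of the family was -0.03, or 0.06 after quantile normalization was applied again. The survival factor BCL2 was at 7.27 and 7.26 with inhibitor and 6.87 and 6.97 with mock (change 0.35, adjusted p = 0.517). MCL1, another survival factor, was at 9.0 and 9.20 with inhibitor and 8.70 and 8.77 with mock (change 0.37, adjusted p = 0.444). The apoptosis promoters PMAIP1, BCL2L11 and BMF had changes of 0.01, -0.03 and -0.11.

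MZB1, a chaperone of antibody assembly in the endoplasmic reticulum, was at 7.21 and 7.31 with inhibitor and 6.44 and 6.48 with mock (change 0.80, adjusted p = 0.0463; 0.393 without mock replicate 1 and 0.353 without inhibitor replicate 2). Its second probe set was at 6.27 and 6.20 with inhibitor and 5.23 and 5.10 with mock. Both probe sets separated the groups, as did those standing for 42.5% of all genes. MZB1 was the 1 called of 17 measured plasma-cell genes, beside 0.0202% of all genes called higher. For 10 of the 17, each inhibitor array was above each mock array, beside 18.1% of all genes. The list median was 0.33, with 0.35 on inhibitor replicate 1 and 0.34 on replicate 2 against the mock mean. IRF4, a factor needed for plasma-cell formation, was at 8.10 and 8.27 with inhibitor and 7.76 and 7.63 with mock (change 0.49, adjusted p = 0.235). XBP1, the secretory pathway regulator, was at 7.18 and 7.0 with inhibitor and 6.71 and 6.58 with mock (change 0.44, adjusted p = 0.509). JCHAIN, dim in both groups, had a change of 0.60 and CREB3L2 one of 0.49 (adjusted p = 0.271 and 0.398). SDC1, the plasma-cell surface marker CD138, overlapped between the groups, with a change of -0.01.

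Of 26 genes of the secretory apparatus and the unfolded protein response, 0 were called, with a median of 0.11, and each inhibitor array was above each mock array for 12, beside 18.1% of all genes. At an unadjusted p under 0.05, 2 differed, beside 8.87% of all genes. The chaperone HYOU1 had a change of 0.34 and HERPUD1, of protein disposal at the endoplasmic reticulum, one of 0.42 (adjusted p = 0.485 and 0.588), the second being 0.23 without inhibitor replicate 2. Every value of this list lay between -0.16 and 0.44.

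**Figure D4:**
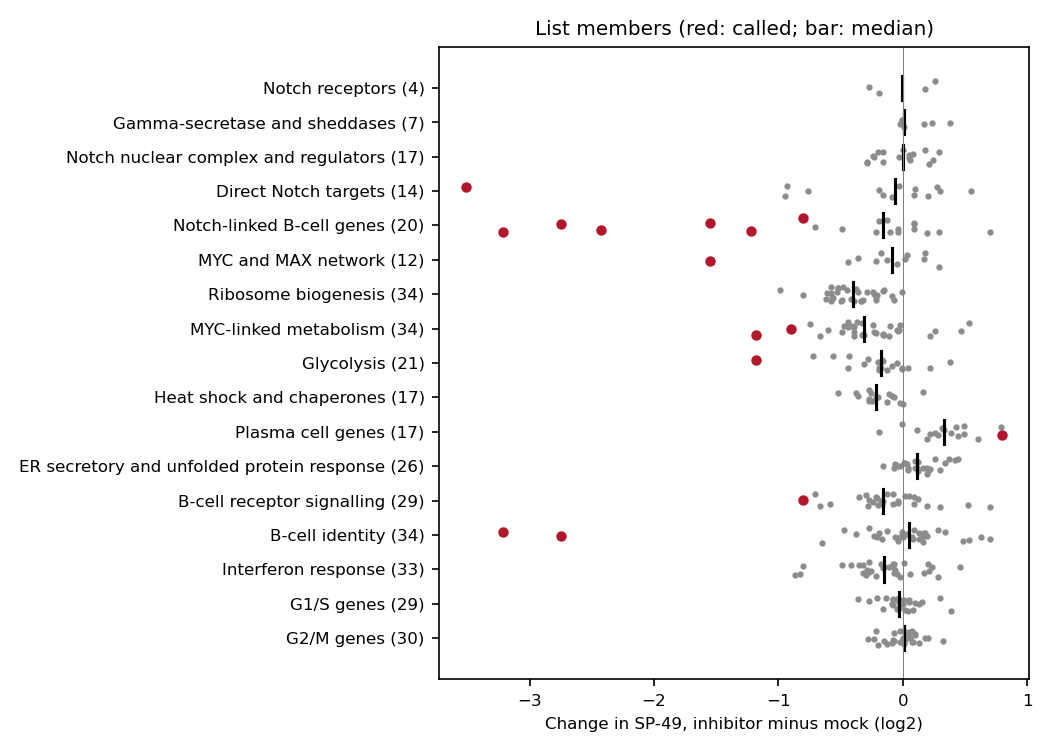
Change in SP-49 (inhibitor minus mock, log2, horizontal axis) of the measured members of 17 lists, each point a gene, with called genes in red and a bar at the median; the number of genes stands in brackets. The ribosome biogenesis genes lie at -0.01 or below, and the plasma-cell genes run from -0.19 to 0.80.

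Of 29 measured genes of the B-cell receptor pathway, FYN, described above, was the 1 called, beside 0.172% of all genes called lower. The median was -0.16, or -0.10 without inhibitor replicate 2. The phosphatase PTPN6, which damps receptor signals, was at 7.93 and 8.12 with inhibitor and 8.72 and 8.67 with mock (change -0.67, adjusted p = 0.0882). The scaffold protease MALT1 was at 5.87 and 5.63 with inhibitor and 6.36 and 6.31 with mock (change -0.59, adjusted p = 0.106). CD79A was at 7.70 and 8.0 with inhibitor and 7.13 and 7.17 with mock. In each of these 3 genes the groups were separate, which was also so for 42.5% of all genes, and none was called. Of 34 B-cell identity genes, FCRL4 and CR2, both described above, fell, beside 0.172% of all genes called lower. The median was 0.05, or 0.01 without inhibitor replicate 2 and -0.01 with probe sets averaged. The tetraspanin CD37 and the E-protein inhibitor ID3 had changes of 0.70 and 0.63 (adjusted p = 0.127 and 0.129).

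Of 12 germinal centre genes, 0 were called by limma and 3 had an unadjusted p under 0.05, beside 8.87% of all genes. Their median was -0.11, or -0.02 without inhibitor replicate 2. BCL6, their master repressor, was at 5.06 and 5.03 with inhibitor and 5.90 and 6.36 with mock (change -1.09, adjusted p = 0.212). Of 20 cytokine and TNF-family receptors, IL6R and IFNGR1, both described above, fell, beside 0.172% of all genes called lower. The median of the 20 was 0.0. TNFRSF1B, a receptor for tumour necrosis factor, was at 5.26 and 5.48 with inhibitor and 6.49 and 5.98 with mock (change -0.87, adjusted p = 0.114). Of 33 interferon-response genes, 0 were called by limma and 5 had an unadjusted p under 0.05, again beside 8.87% of all genes. Their median was -0.15, or -0.01 without inhibitor replicate 2. IFIT3 and IFI44, both antiviral, had changes of -0.87 and -0.80, and the RNase ISG20 one of 0.46 (adjusted p = 0.114, 0.231 and 0.344). Of 22 genes of migration and adhesion, CDH1 was the 1 called, beside 0.172% of all genes called lower. The median was -0.11, or 0.05 without inhibitor replicate 2. The integrin chain ITGA4 had a change of -0.65 and the sphingosine phosphate receptor S1PR4 one of 0.72 (adjusted p = 0.183 and 0.135).

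Of the cell cycle lists, at an unadjusted p under 0.05 the count was 1 for G1/S and 0 for G2/M, beside 8.87% of all genes. The G1/S list (29 measured, 0 called) had a median of -0.03 and the G2/M list (30 measured, 0 called) one of 0.01, with changes from -0.36 to 0.39 and from -0.28 to 0.32. After quantile normalization was applied again, these medians were 0.03 and 0.08. Of the cholesterol list, 77.3% was measured. The lists of NF-kB targets (25 measured), p53 targets (15), MHC class II genes (13) and cholesterol synthesis (17) had 0 called genes. At an unadjusted p under 0.05 they had 3, 1, 1 and 2, beside 8.87% of all genes. Their medians were -0.08, -0.15, -0.01 and 0.0, the first 2 being -0.05 and -0.09 without inhibitor replicate 2, and that of MHC class II was 0.03 after quantile normalization was applied again. Among 28 immediate-early genes, MYC and EGR3, both described above, fell, beside 0.172% of all genes called lower. EGR1, related to EGR3, had a change of -0.40 (adjusted p = 0.519), or -0.15 without inhibitor replicate 2. Of 13 mantle cell lymphoma markers, 0 were called by limma and 3 had an unadjusted p under 0.05, beside 8.87% of all genes. The median was 0.01 (0.08 without inhibitor replicate 2). CCND1, the cyclin D1 gene, had a change of 0.29 (adjusted p = 0.478).

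Some uncalled genes had changes as large as the called ones. ID1, an inhibitor of helix-loop-helix factors, was at 5.25 and 4.66 with inhibitor and 6.44 and 6.72 with mock (change -1.62, adjusted p = 0.0636). IL4I1, a secreted amino acid oxidase, was at 3.15 and 3.22 with inhibitor and 4.42 and 4.77 with mock (change -1.41, adjusted p = 0.0791). P2RY2, a nucleotide receptor, was at 2.36 and 2.12 with inhibitor and 3.68 and 3.60 with mock (change -1.40, adjusted p = 0.0726). These genes were chosen among those whose groups do not overlap, so their separation is no result. SPRED1, PUS7 and RDH10 had changes of -1.26, -1.25 and -1.12. On the upper side, KISS1R was at 6.06 and 4.75 with inhibitor and 4.63 and 2.71 with mock, with wide gaps inside both groups (change 1.74, adjusted p = 0.271). CRYM was at 9.12 and 9.10 with inhibitor and 7.76 and 8.07 with mock (change 1.20, adjusted p = 0.265). CTXN3 was at 6.07 and 5.20 with inhibitor and 4.33 and 4.68 with mock (change 1.13, adjusted p = 0.111), and it passed without inhibitor replicate 2 (change 1.57, adjusted p = 0.0355).

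The calls rested on single arrays to unequal degrees. FCRL4, HES1, CR2, CDK5R1, TMEM200A, CD300A and BIK passed in all 12 fits with 1 array omitted. Of the 38 calls, 31 ended without mock replicate 1 of SP-49, 29 without mock replicate 2, 19 without inhibitor replicate 1 and 31 without inhibitor replicate 2. The total was then 7, 9, 58 and 8 genes. Leaving out an array of another line, which lends only its spread, ended between 0 (either inhibitor array of Rec-1) and 20 (either mock array of Mino) of the 38 calls. Of the 38 genes, 23 had more than 1 probe set, and 44 of their 55 other probe sets changed in the direction of the brightest. Of these 55, 25 had a mean below the median of all probe sets, and 6 passed on their own.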

How the data were processed

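RNA was measured on arrays that the sample labels assign to 3 cell lines, with the label preparation described as the standard Affymetrix protocol. The authors' deposited table holds log2 values, 1 per probe set and array, and per the submitters' processing notes RMA and limma were used. Base 2 was inferred from the range of 0.58 to 12.78. Precision is limited by the number of arrays; the standard error for SP-49 had a median of 0.164 over genes.

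Genes were named from GEO's platform annotation, with symbols made current through RefSeq (GRCh38.p14) gene numbers for 41043 of 41097 probe sets that name 1 gene. The brightest of a gene's probe sets over all 12 arrays stood for it, which gave 19775 genes and no filter on dim ones. limma 3.58.1 in R 4.3.3 fitted 6 group means, with 6 residual and 5.22 prior degrees of freedom. Tests were two-sided, with Benjamini-Hochberg adjustment across all genes and a threshold of 0.05. On simulated SP-49 data with 19775 genes, 98.5% of genes changed by 2 log2 units, 74.6% of those changed by 1 and 4.5% of those changed by 0.5 were recovered, with 4 false calls. The simulated noise was normal, with 1 variance per gene for all groups, whereas the real groups differed in spread. The standard deviation of the replicate difference was 0.206 for SP-49 mock and 0.372 for Rec-1 inhibitor. The simulated shares therefore need not hold for these arrays. The genes named are all those past the threshold, a fixed set of Notch genes, up to 4 members with the smallest p of each of 35 lists, the 10 largest changes each way below the threshold that do not overlap, and members given for completeness. Lists and members were chosen with earlier results of these data known. Alternatives were another gene summary, dim genes left out, other scaling, a trended prior, array weights, a minimum fold, a replicate block, fewer arrays, and each array left out. No label says whether replicates were separate cultures, so p-values may measure technical spread only.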

Additional observations from a re-analysis of the deposited data

Results flagged for a closer look

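Among the called genes and the fixed set of Notch genes, a test of the difference between lines passed for 20 pairs of gene and line. Of these, 11 were against Rec-1 and 9 against Mino. The called genes were chosen by the SP-49 change, which is part of each difference, so the number of pairs is no separate support. Genes outside these sets passed against Rec-1 too, including IFIT3 (difference -2.53, adjusted p = 0.00388 in limma) and EGR1 (difference -1.26, adjusted p = 0.0452). Their changes in Rec-1 were 1.67 and 0.86. The SP-49 change minus the Rec-1 change was -1.91 for CDK5R1, -1.74 for ETV1, -1.70 for GPAT3, -1.24 for SLC16A14, -1.19 for DZANK1, -1.51 for DTX4, -2.35 for LAMP3 and -1.33 for VPREB3. It was 1.55 for HES4, 1.99 for HEY1 and 1.05 for DTX1, so their changes were less negative in SP-49 or, for DTX1, on the upper side. HEY1 and HES4 started from low mock levels in SP-49, as given above. The SP-49 change minus the Mino change was -3.32 for FCRL4, -3.44 for HES1, -2.54 for CR2, -2.48 for CDK5R1, -1.27 for TMEM200A and -2.28 for CD300A. It was 1.80 for BIK, -1.91 for ETV1 and -1.64 for PLAC8. PLAC8 had a change of 0.78 in Mino (adjusted p = 0.47 in limma), against -0.86 in SP-49. Mino was grown with 15% serum and SP-49 with 10%, so serum and line cannot be told apart in these differences.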

How the results depend on the processing

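The count of 38 genes called in SP-49 (4 higher, 34 lower) moved with several choices. It was 60 (8 higher, 52 lower) with probe sets averaged per gene, 208 (43 and 165) with an intensity trend and robust prior, 123 (23 and 100) with array weights, 11 (1 and 10) with only the 4 SP-49 arrays and 5 (0 and 5) with a minimum of 1.5-fold. After quantile normalization was applied again 9 were higher. A replicate block gave 16 (2 and 14), although the numbers do not pair the samples: the deviations of same-numbered SP-49 arrays had a correlation of -0.011. Without inhibitor replicate 2 of both Rec-1 and SP-49 the count was 13, with 10 lower. With 1 array left out it ran from 7 to 72, with 1 to 8 higher and 6 to 64 lower. The 110 genes that differed from Rec-1 became 343 with the trend, 4 with the minimum fold, 50 with the block, 38 without those inhibitor arrays, and 6 to 283 with 1 array left out. The 9 that differed from Mino became 45, 4 with the minimum fold, and 4 to 13. Directions turned for NOTCH1 (0.16), RBPJ (-0.01) and ADAM17 (-0.01) with probe sets averaged, and RBPJ ran from -0.04 to 0.16 with 1 array left out. The cause was not tested. Small changes are limited by 2 arrays a group, and low signals by the bottom of the scale.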
